A study of Rattus norvegicus with 8 samples.

Results

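Vimentin and 8 keratins of simple and stratified epithelium, 9 genes in all (Krt5, Krt7, Krt8, Krt14, Krt15, Krt17, Krt18, Krt19 and Vim), were followed in the ovaries of immature rats. They were taken as every non-control probe whose gene name in the scanner files was one of these 9 symbols, out of 26204 names on the array (a probe without a gene counts by its own name). This gave 10 probes of the 30350 on the array, 1 per gene and 2 for Krt7. Of the 10, 9 probes of 8 genes were well above background on at least 4 of the 8 arrays and were tested, among 25303 tested probes. The Krt17 probe did not reach that number of arrays and was not tested.

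Per the labels, female rats aged 26 days received under the skin an injection of 0.2 ml of phosphate buffer with albumin, holding 50 IU of PMSG in one group and no hormone in the control group. The ovaries were collected after 48 h, when the rats were 28 days old. PMSG (pregnant mare serum gonadotropin) acts mainly like follicle-stimulating hormone and in part like luteinising hormone. Whole-ovary RNA was measured on 1-colour Agilent rat arrays, 4 labelled control and 4 labelled PMSG, and no strain is stated in the labels used here. The labels do not say whether each array came from its own animal, so the p-values measure only the spread between these samples, which may be technical.

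Keratins build the intermediate filaments of epithelial cells, and each filament needs a type I partner and a type II partner. Krt8 (type II) and Krt18 (type I) are the founding pair of simple epithelium, Krt7 and Krt19 join them in ducts and other simple linings, and Krt5 and Krt14 are the pair of basal cells in stratified epithelium. Vimentin forms filaments alone and is typical of mesenchymal cells, including fibroblasts, endothelium and leukocytes. In the ovary, keratins 7, 8, 18 and 19 are known from the surface epithelium, and granulosa cells can hold both keratin 8/18 and vimentin.

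Probes of 5 of the genes are shown first, since each value is a reading of such a stretch of 60 bases only: Vim, Krt15 and Krt5, which passed the test below, and Krt8 and Krt19, which did not and are the partner of Krt18 and the neighbour of Krt15. The Krt18 probe, which passed too, is not shown. Coordinates are those of the array files on the rat build rn4. The Vim probe lay at chr17:87851390-87851449 on the plus strand, starting at base 711 of its transcript. The Krt15 and Krt19 probes lay at chr10:89072179-89072238 and chr10:89081437-89081496, both on the minus strand. The Krt8 probe was placed at chr7:140716967-140717949 on the minus strand, a span of 983 bases for 60 bases of probe, so its match was split over more than 1 exon. The array files give no position for the Krt5 and Krt18 probes.
Vim: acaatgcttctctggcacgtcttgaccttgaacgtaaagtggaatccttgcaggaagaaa
Krt15: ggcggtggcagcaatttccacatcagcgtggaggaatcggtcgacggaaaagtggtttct
Krt5: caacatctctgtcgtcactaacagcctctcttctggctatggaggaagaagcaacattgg
Krt8: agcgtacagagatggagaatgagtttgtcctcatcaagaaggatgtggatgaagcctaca
Krt19: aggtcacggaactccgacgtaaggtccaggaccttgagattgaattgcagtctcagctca

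Levels are log2 signals minus the array's 75th percentile of log2 signal, so a level of 0 is the 75th percentile of all probes on that array. Probes bind with different strength, and levels of different probes were not set against each other. The 75th percentile of signal lay between 1002 and 1103 on control-labelled arrays and between 769 and 1082 on PMSG-labelled arrays. Between 80.8% and 82.9% of probes were well above background on the former and between 81.9% and 84.6% on the latter, and no spot was saturated. The fourth PMSG-labelled array stood apart, with a fitted array weight of 0.279 against 0.673 to 1.95 for the other 7. Every direction follows the sample titles. Some genes that respond to gonadotropins did not follow their textbook direction: Cyp11a1, the enzyme that starts steroid synthesis, was lower by 3.36 log2 units on PMSG-labelled arrays, and Lhcgr, the luteinising hormone receptor, was lower by 1.93. Amh, a granulosa hormone of small follicles, was higher by 3.03. Whether the labels of the groups were exchanged was not tested, and an exchange would turn the sign of every difference given here.

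Of the 8 genes tested, Krt18 and Krt5 were higher and Vim and Krt15 were lower on PMSG-labelled arrays, while Krt7, Krt8, Krt14 and Krt19 did not pass the test (limma, Benjamini-Hochberg adjusted over 25303 probes, threshold 0.05). The same test called 8658 probes, 34.2% of all tested, with 17.6% higher and 16.6% lower. Counted per gene name, 34.5% of 21922 genes were called. With 4 genes called of 8, the set lay near that background in number and was split evenly in direction. The median log2 difference was 0.22 over the 8 genes and 0.11 over all tested probes. When each array was centred on its median, the median over all probes moved to -0.05 and the share of calls that were higher moved from 51.4% to 34.5%, while the same count of 4 genes was called. Levels on the PMSG-labelled and control-labelled arrays did not overlap for 3 of the 8 genes, Vim, Krt15 and Krt18, against 36.6% of all tested probes. RNA came from whole ovaries, so fewer cells of a type and less RNA per cell cannot be told apart.

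**Figure D1:**
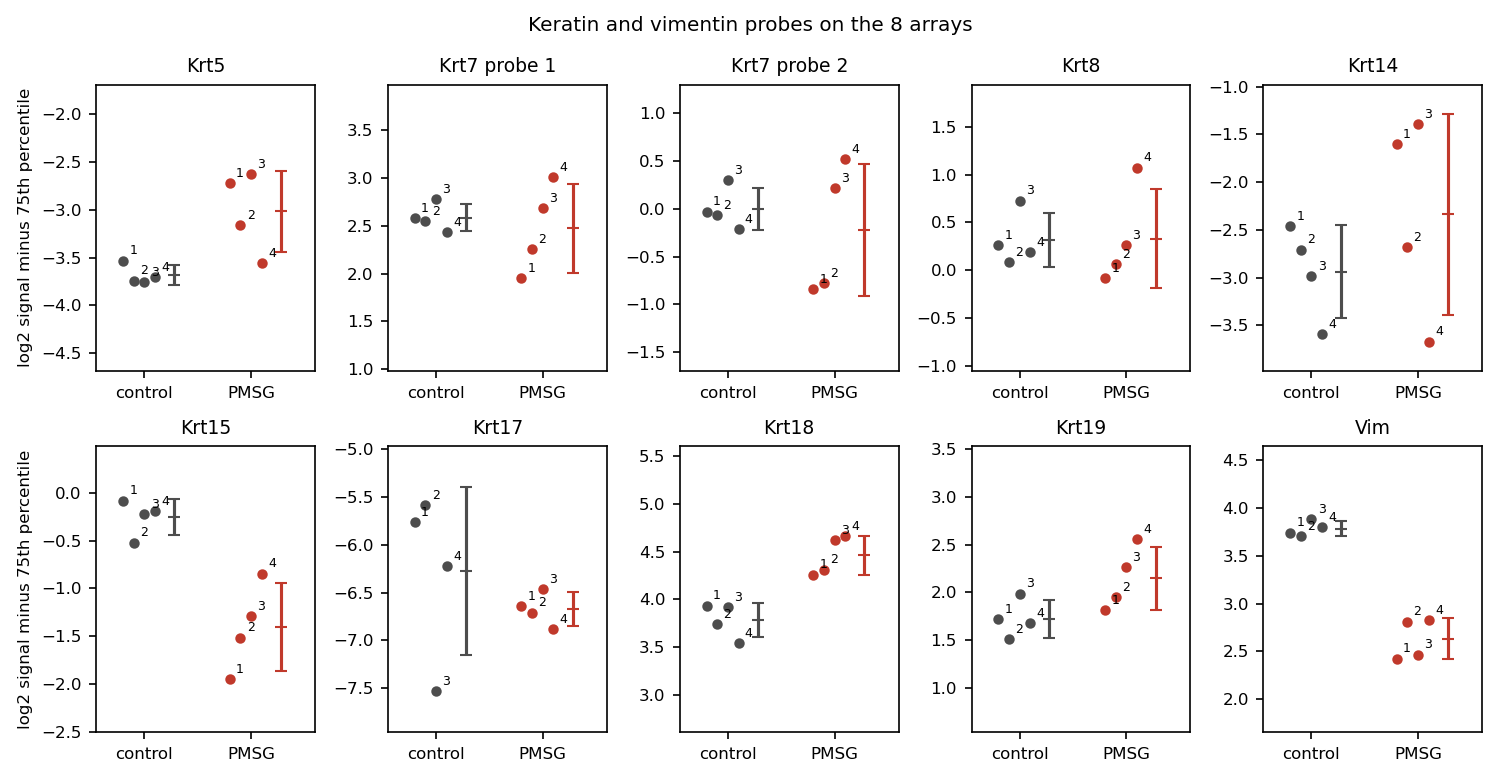
Level of each keratin and vimentin probe on the 8 arrays, as log2 signal minus the array's 75th percentile; points are arrays with their replicate number, and bars are the group mean ± SD (n = 4). Each panel has its own range of levels. Vim and Krt15 on PMSG-labelled arrays all lie below the control-labelled arrays, and Krt18 lies above them.

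Vimentin showed the smallest adjusted p of the 8 genes. Its level was 3.74, 3.71, 3.89 and 3.80 on control-labelled arrays 1 to 4, and 2.42, 2.81, 2.46 and 2.83 on PMSG-labelled arrays 1 to 4. Every PMSG-labelled array lay below every control-labelled array, and the 10 spots of the probe differed little within an array (SD between spots 0.0255 to 0.0841). The means were 3.78 ± 0.08 (SD, n = 4) and 2.63 ± 0.22 (SD, n = 4). The difference was -1.15 log2 units (SE 0.12, 95% interval -1.44 to -0.87), a 2.22-fold lower signal on PMSG-labelled arrays (limma adjusted p = 0.000399). The call held in all 18 alternatives that used both rows of the slide, with differences from -1.32 to -1.01. Within a single row of 2 arrays per label it was -1.12 (limma adjusted p = 0.0371) and -1.19 (limma adjusted p = 0.0904).

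Krt15, a type I keratin of basal and progenitor-like epithelial cells, was lower by a similar amount. Control-labelled arrays read -0.08, -0.52, -0.22 and -0.19, and PMSG-labelled arrays read -1.95, -1.52, -1.29 and -0.85. The groups did not overlap, but the PMSG-labelled arrays spread over more than 1 log2 unit, from the lowest on array 1 to the highest on array 4. Means were -0.25 ± 0.19 (SD, n = 4) and -1.40 ± 0.46 (SD, n = 4), a difference of -1.15 log2 units (SE 0.23, 95% interval -1.67 to -0.63) or 2.21-fold (limma adjusted p = 0.00563). Krt19 is the neighbour of Krt15 on chromosome 10, with 0 protein-coding genes between them in the RefSeq annotation of the assembly GRCr8, and its difference had the other sign. Within single slide rows of 2 arrays per label, the Krt15 difference was -1.04 (limma adjusted p = 0.0439) and -1.25 (limma adjusted p = 0.203).

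Krt18, the type I partner of keratin 8, was higher on PMSG-labelled arrays. The level was 3.93, 3.74, 3.92 and 3.55 on control-labelled arrays and 4.26, 4.31, 4.62 and 4.66 on PMSG-labelled arrays. The lowest PMSG-labelled array stood above the highest control-labelled array. The means of 3.78 ± 0.18 (SD, n = 4) and 4.46 ± 0.21 (SD, n = 4) differed by 0.68 log2 units (SE 0.14, 95% interval 0.36 to 1.00), which is 1.60-fold (limma adjusted p = 0.00687). Over 18 alternatives the difference ran from 0.51 to 0.81 and the call was kept, with adjusted p up to 0.0424. Within slide rows it was 0.82 and 0.54 and was not called (limma adjusted p = 0.0602 and 0.244).

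The Krt18 reading is uncertain as a reading of 1 gene, because the array holds probes for close relatives of it. These relatives were looked up after the values had been seen. An unnamed probe at chr2:80044514-80044573 shares a run of 24 bases with the Krt18 probe. It read 2.66, 2.61, 2.77 and 2.37 on control-labelled arrays and 3.09, 3.19, 3.34 and 3.44 on PMSG-labelled arrays, a difference of 0.66 (SE 0.12, limma adjusted p = 0.00451). A probe on chromosome 8 for a transcript described as similar to endo B cytokeratin, an older name of keratin 18, differed by 0.67 (SE 0.16, limma adjusted p = 0.0131). A transcript on chromosome 10 described as type I cytoskeletal 18 differed by 0.53 on one probe and 0.76 on the other (limma adjusted p = 0.0295 and 0.0180). All 4 of these probes were higher on every PMSG-labelled array than on any control-labelled array. Groups did not overlap, in either direction, for 36.6% of all tested probes. Another keratin 18 relative, LOC499023, was well above background on 0 control-labelled and 2 PMSG-labelled arrays, its groups overlapped, and it was not tested. Whether they bind the same RNA as the Krt18 probe was not tested, so they are not counted as independent readings.

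Krt8, the type II partner of Krt18, did not pass the test. It read 0.26, 0.09, 0.73 and 0.19 on control-labelled arrays, and -0.08, 0.06, 0.27 and 1.07 on PMSG-labelled arrays. The fourth PMSG-labelled array was the highest of all 8 and the first was the lowest, so the groups overlapped fully. The difference was 0.02 log2 units (SE 0.26, 95% interval -0.59 to 0.62, limma adjusted p = 0.967), and this interval does not show that the groups were alike. Its probe has 10 spots, which differed by an SD of 0.0481 to 0.0727 within an array, far less than the spread of 0.51 (SD, n = 4) between PMSG-labelled arrays. Without the fourth PMSG-labelled array the difference was -0.23 and it was still not called. Of 2 keratin 8-like genes on the array, one was well above background on 0 control-labelled and 2 PMSG-labelled arrays, with no overlap between groups, and was not tested. The other, RGD1561232 at chr11:64864619-64864678, read 2.56, 2.56, 3.00 and 2.58 on control-labelled arrays and 2.41, 2.53, 2.87 and 3.37 on PMSG-labelled arrays. It too had its lowest PMSG-labelled value on array 1 and its highest on array 4, and its difference of 0.12 was not called (limma adjusted p = 0.699).

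**Figure D2:**
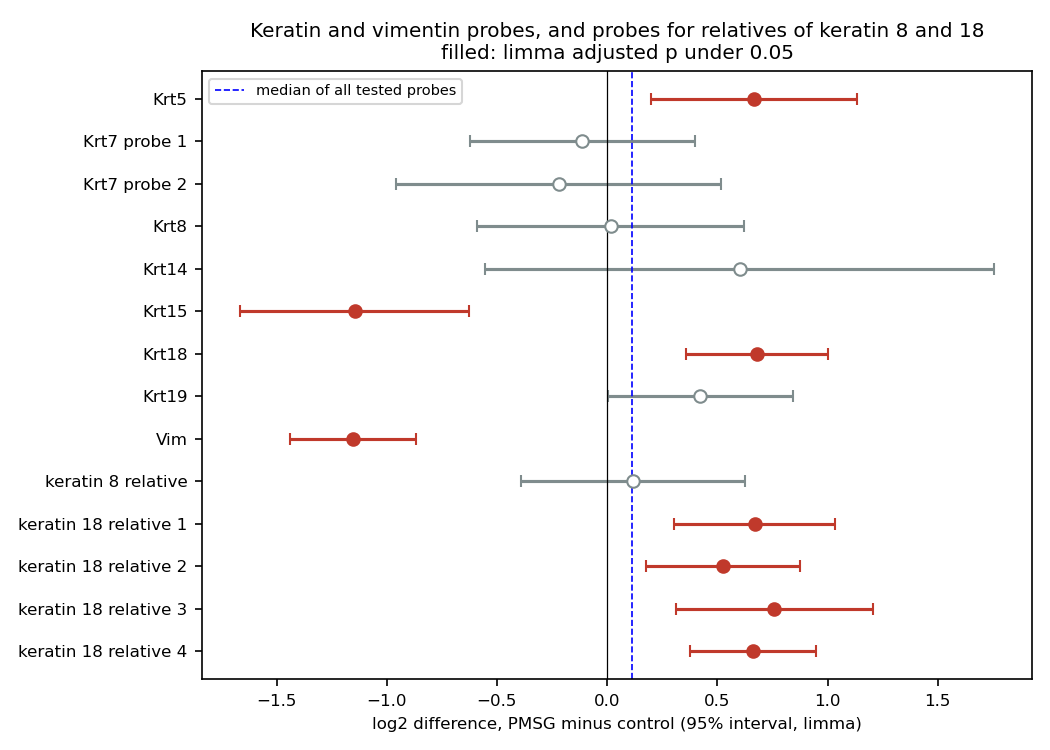
Log2 difference, PMSG-labelled minus control-labelled, for the 9 tested keratin and vimentin probes and for probes of a relative of keratin 8 (RGD1561232) and relatives of keratin 18; bars are 95% intervals from limma and the dashed line is the median of all tested probes, 0.11. Filled points passed the adjusted p threshold of 0.05; Krt18 and its 4 tested relatives lie to the right of 0, and Krt15 and Vim lie to the left.

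Krt19, a type I keratin of ducts and simple linings, did not pass the test. Its level was 1.72, 1.51, 1.99 and 1.68 on control-labelled arrays and 1.81, 1.95, 2.27 and 2.56 on PMSG-labelled arrays. PMSG-labelled arrays 1 and 2 fell within the control range. The difference was 0.42 log2 units (SE 0.18, 95% interval 0.00 to 0.84, limma adjusted p = 0.107), and it was positive in every one of 18 alternatives, from 0.26 to 0.54, without being called.

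Krt7, the type II keratin of the same linings, was read by a pair of probes and neither passed. The first, at chr7:140175626-140175685 on the plus strand, read 2.58, 2.55, 2.78 and 2.43 on control-labelled arrays and 1.95, 2.25, 2.68 and 3.01 on PMSG-labelled arrays (difference -0.11, SE 0.22, 95% interval -0.62 to 0.40, limma adjusted p = 0.712). The second, with no position in the array files, read -0.03, -0.07, 0.30 and -0.21, then -0.84, -0.78, 0.22 and 0.52 (difference -0.22, SE 0.32, 95% interval -0.96 to 0.52, limma adjusted p = 0.612). On both probes PMSG-labelled arrays 1 and 2 lay below every control-labelled array and array 4 lay above every one of them.

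Krt5, the type II keratin of basal cells, was dim and passed the test narrowly. Control-labelled arrays read -3.53, -3.74, -3.75 and -3.71, and PMSG-labelled arrays read -2.72, -3.16, -2.63 and -3.56. Array 4 of the PMSG label overlapped the control-labelled arrays and the other 3 lay above them. The difference was 0.67 log2 units (SE 0.20, 95% interval 0.20 to 1.14), or 1.59-fold (limma adjusted p = 0.0357). The call was lost in 9 of 18 alternatives, with adjusted p up to 0.0885, including 7 of the 8 that leave out 1 array. Leaving out PMSG-labelled array 4 gave 0.85 (limma adjusted p = 0.00413).

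Krt14 is the type I partner of Krt5, and its probe was placed at chr10:89144454-89145130 on the minus strand, a span of 677 bases. It read -2.46, -2.71, -2.99 and -3.59 on control-labelled arrays and -1.60, -2.68, -1.39 and -3.67 on PMSG-labelled arrays. PMSG-labelled arrays 1 and 3 lay above every control-labelled array, and array 4 lay below every one. The difference of 0.60 log2 units was not called (SE 0.50, 95% interval -0.56 to 1.76, limma adjusted p = 0.374). Its 2 spots disagreed by an SD of up to 1.03 within an array, so the reading is imprecise. Without PMSG-labelled array 4 the difference was 1.04 (limma adjusted p = 0.0560).

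Krt17, a type I keratin of activated and appendage epithelium, was near the detection limit. Its probe, at chr10:89187269-89187328 on the minus strand, was well above background on 3 control-labelled arrays and on 0 PMSG-labelled arrays. Signals read -5.76, -5.59, -7.53 and -6.22 on control-labelled arrays and -6.64, -6.71, -6.46 and -6.88 on PMSG-labelled arrays. For a comparison, each PMSG-labelled array was set to its lowest signal well above background or to the probe's own value, whichever was higher. The control-labelled mean of -6.27 was 1.09-fold brighter than the mean of these values. This is no lower bound, because control-labelled array 3 (-7.53) was not well above background itself and was the dimmest of all arrays. The groups overlapped. No test was made.

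The spread between PMSG-labelled arrays followed the same order for most of the genes. Array 1 was the lowest and array 4 the highest of the PMSG-labelled arrays for 7 of the 9 tested probes (both Krt7 probes, Krt8, Krt15, Krt18, Krt19 and Vim). Over all tested probes, 7.84% had this order, array 4 was the highest for 20.5% and it was the lowest for 47.3%. Krt5 and Krt14 ran the other way, with array 4 lowest and array 3 highest. The pattern was noticed after the values had been seen and is given as a description. Replicate numbers have no order of their own. Among control-labelled arrays, array 3 was the highest for both Krt7 probes, Krt8, Krt19 and Vim.

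**Figure D3:**
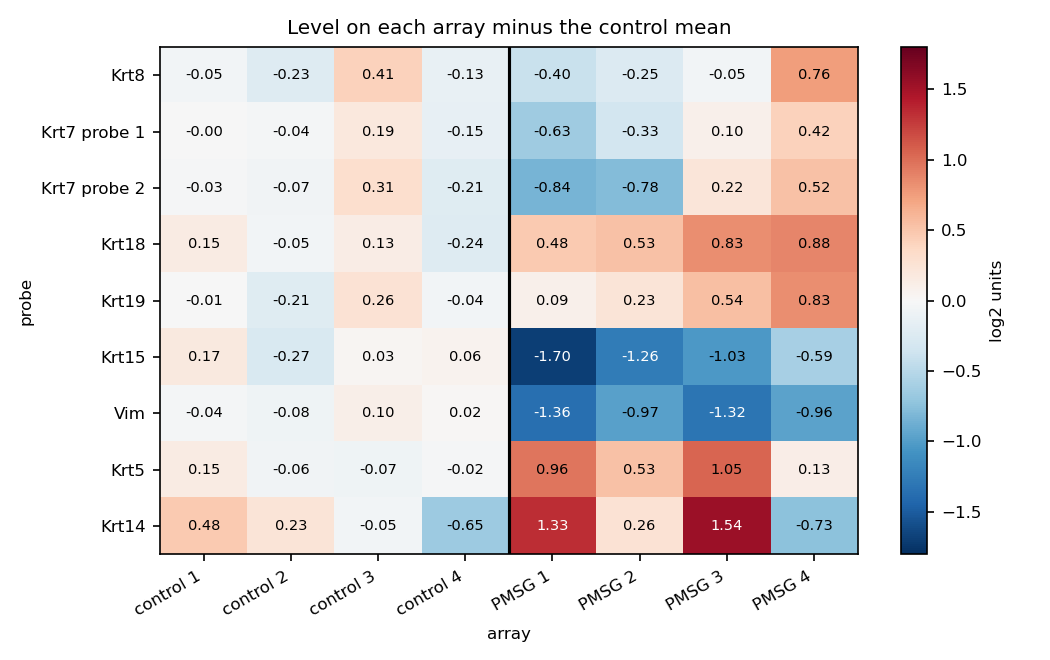
Level of each tested probe on each array minus its control-labelled mean, in log2 units; red is higher and blue is lower, and the vertical line separates the control-labelled arrays from the PMSG-labelled ones. Of the PMSG-labelled arrays, array 4 holds the highest value of Krt8 (a level of 1.07), Krt7, Krt18 and Krt19 and the lowest of Krt5 and Krt14.

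Unequal change within an array was tested for 4 pairs, as the log2 difference between both genes of a pair on each array. Only the change of that difference between labels is read here, since probes differ in strength. Krt18 minus Vim was higher by 1.83 on PMSG-labelled arrays (SD over arrays 0.19 for control and 0.27 for PMSG, n = 4 each; exact two-sided permutation p = 0.0286, adjusted over the 4 pairs 0.0571). Krt7 minus Krt19 was lower by 0.54 (SD 0.13 and 0.14, n = 4 each; exact two-sided permutation p = 0.0286, adjusted 0.0571). Both differences had no overlap between labels, and 0.0286 is the smallest p that the 70 regroupings of 4 against 4 can give, so after adjustment neither passed 0.05. For Krt18 minus Vim this p was fixed in advance, since each gene alone had no overlap and their directions were opposite. It thus adds nothing to the results of the single genes. Krt8 minus Krt18 was lower by 0.66 (exact two-sided permutation p = 0.0857, adjusted 0.114). Krt5 minus Krt14 changed by 0.07 (exact two-sided permutation p = 0.857, adjusted 0.857), and its sign turned between alternatives (-0.20 to 0.28 with 1 array left out). For Krt7 and Krt19, values varied together over the arrays: their difference varied by an SD of 0.14 over PMSG-labelled arrays, against 0.46 for Krt7 and 0.33 for Krt19 alone.

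Krt8 and Krt18 are neighbours on chromosome 7 in RefSeq's annotation of GRCr8, with 0 protein-coding genes between them. All 9 genes were matched in that annotation, and RefSeq promoters were matched for 4 of them (Krt5, Krt8, Krt18 and Vim). The 250 bases before the start are shown for Krt8, Krt18 and Vim, since the first pair sit side by side and had different results and Vim had the smallest adjusted p. Capitals mark matches on either strand to TATAAA, the TATA box core, or to GGGCGG, the GC box. The windows are chr7:135010340-135010589 (minus strand), chr7:135035918-135036167 (plus strand) and chr17:81577011-81577260 (plus strand) on GRCr8.
Krt8: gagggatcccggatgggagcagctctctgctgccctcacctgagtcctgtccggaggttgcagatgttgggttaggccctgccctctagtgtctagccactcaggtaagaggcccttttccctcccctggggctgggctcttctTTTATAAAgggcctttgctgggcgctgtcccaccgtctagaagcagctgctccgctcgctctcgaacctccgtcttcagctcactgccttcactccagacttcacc
Krt18: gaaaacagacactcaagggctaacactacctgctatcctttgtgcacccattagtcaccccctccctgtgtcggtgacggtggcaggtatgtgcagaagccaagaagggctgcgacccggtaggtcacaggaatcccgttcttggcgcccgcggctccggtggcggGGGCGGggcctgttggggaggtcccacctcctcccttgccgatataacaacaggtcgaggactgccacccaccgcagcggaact
Vim: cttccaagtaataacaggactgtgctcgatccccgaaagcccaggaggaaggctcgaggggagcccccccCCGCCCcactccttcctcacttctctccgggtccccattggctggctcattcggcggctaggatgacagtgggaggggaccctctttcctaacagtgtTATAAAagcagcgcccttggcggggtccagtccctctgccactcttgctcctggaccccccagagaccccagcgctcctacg
In the Krt8 window TATAAA matched on both strands in overlapping letters, with first bases 106 and 104 before the start. Vim held 1 match, 82 bases before its start, and Krt18 held none. TATAAA occurred in 12.9% of 33469 rat promoter windows of this length. GGGCGG matched in Krt18 (84 bases before the start), in Vim (180) and in Krt5 (54), and in 30.5% of all windows. TGANTCA, the AP-1 motif, was found in none of the 4 and in 6.34% of all windows. These matches are a description of letters in the windows.

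The genes whose profile over the 8 arrays came closest were found by the root-mean-square distance between centred log2 levels, among 15341 genes above background on all arrays. For Vim these were Apold1 (0.0896) and Amph (0.0912), and for Krt18 they were Gdpd2 (0.0670) and Acad11 (0.0721). Krt15 lay closest to Tmem119 (0.0957) and RGD1563349 (0.150). For Krt8 the closest was the keratin 8-like RGD1561232 (0.107), followed by Srpx (0.107). Krt7 lay closest to Stat5a (0.0725) and Rhpn1 (0.0806), and Krt19 to Col5a2 (0.0773) and Tbxas1 (0.0890). Mgat5 (0.0555) and Tdpoz1 (0.0665) were closest to Krt5, and Umod (0.171) and Vdr (0.210) to Krt14. With 8 arrays and this many genes some close profiles occur in any case.

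Other keratins, most of them of hair, nail and stratified epithelium, were at low signal. Of 37 on the array, 24 were tested, 4 were higher and 1 was lower on PMSG-labelled arrays. Over all tested probes 17.6% were higher and 16.6% lower, so these keratins were called no more often than probes in general. Their median log2 difference was 0.42, against 0.11 over all probes. The largest differences were those of the hair keratin Krt84 (1.62, limma adjusted p = 0.00917), of Krt42 (1.55, limma adjusted p = 0.00192) and of the epidermal Krt2 (1.53, limma adjusted p = 0.00822), which was above background on 0 control-labelled and 4 PMSG-labelled arrays, so its fitted difference is no bound. Krt28 was the one that was lower (-0.90, limma adjusted p = 0.00430). Krt85, which was higher too, was above background on 1 control-labelled and 4 PMSG-labelled arrays. Krt2 and Krt85 thus reached the test through the PMSG-labelled arrays, and the count and median of this list carry that limit. Without PMSG-labelled array 4 the count of higher genes was 8, and under quantile normalization the median was 0.16.

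Other intermediate filament genes went both ways, with 3 higher and 4 lower of 12 tested and a median of 0.01 (34.5% of all gene names were called). Nefh, the heavy neurofilament subunit, differed by -1.90 (limma adjusted p = 0.000600), with 2 of the PMSG-labelled arrays above background. Prph, peripherin of peripheral neurons, differed by 0.99 (limma adjusted p = 0.00975), and Lmna, the nuclear lamin A/C gene, by -0.77 (limma adjusted p = 0.00250). When arrays were centred on their median the count of higher genes was 1.

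The filament anchors and partners had 8 of 17 tested genes higher and 0 lower at the adjusted threshold in limma (2 lower at an unadjusted p under 0.05), with a median of 0.49. Over all tested probes 17.6% were higher and 16.6% lower. Dsp, desmoplakin, which ties keratin filaments to desmosomes, was higher by 1.54 (SE 0.15, limma adjusted p = 0.000257). Itgb4, the hemidesmosome integrin, was higher by 0.99 (limma adjusted p = 0.00393), and Pkp3, a plakophilin, differed by 0.74 without passing (limma adjusted p = 0.0550). Median centring left 4 of them called, and without PMSG-labelled array 4 there were 10 higher and 2 lower.

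Epithelial regulators and surface proteins had 8 of 21 genes higher and 0 lower in limma (1 lower at an unadjusted p under 0.05), with a median of 0.61. Of all gene names 34.5% were called in either direction, and the number of calls in this list lay near that background. All calls in this list were in the higher direction, while over all tested probes 17.6% were higher and 16.6% lower. Klf5, a transcription factor of epithelial cells, differed by 1.77 log2 units (SE 0.20; limma adjusted p = 0.000470). Grhl1, a grainyhead factor that controls desmosomal genes, was higher by 1.77 (SE 0.22, limma adjusted p = 0.000736), and Cldn4, a tight junction protein, by 1.72 (SE 0.17, limma adjusted p = 0.000263). Epcam and Cdh1, the common surface markers of epithelium, differed by 0.45 and 0.47 and did not pass (limma adjusted p = 0.220 and 0.106). Counts under median centring were 7 higher and 2 lower.

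Mesenchymal regulators and partners of vimentin had 0 of 10 genes higher and 2 lower in limma (0 higher and 4 lower at an unadjusted p under 0.05), with a median of -0.23. Over all tested probes 17.6% were higher and 16.6% lower. S100a4, a calcium-binding protein of motile mesenchymal cells, was lower (-1.23, SE 0.16, limma adjusted p = 0.000903), as was the transcription factor Twist2 (-0.84, limma adjusted p = 0.0365). Cdh2, N-cadherin, differed by -0.65 (limma adjusted p = 0.108), and Zeb1, a repressor of epithelial genes, by 0.11 (limma adjusted p = 0.350).

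**Figure D4:**
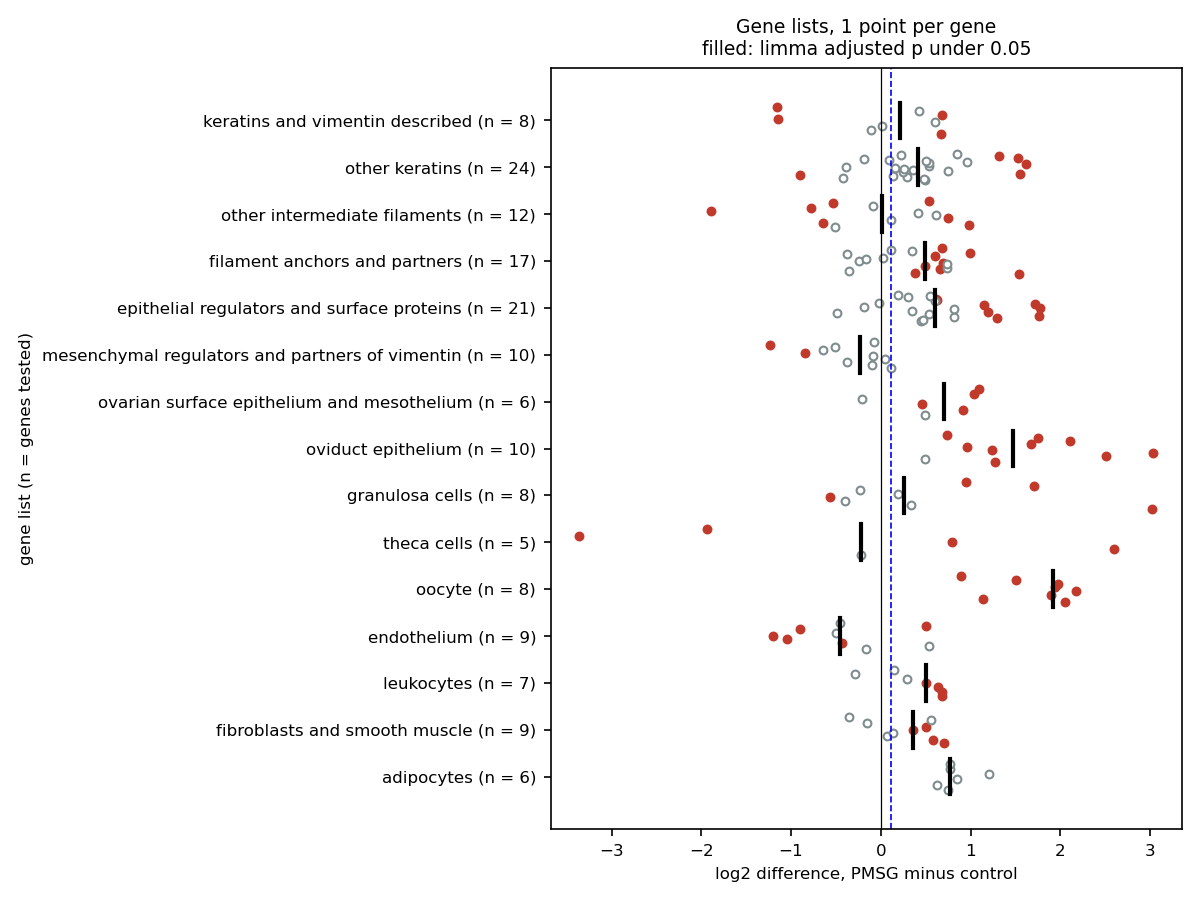
Log2 difference, PMSG-labelled minus control-labelled, of the tested genes of each list, 1 point per gene with filled points past the limma adjusted p threshold of 0.05; short black bars are list medians and the dashed line is the median of all tested probes, 0.11. The oocyte (1.92) and oviduct (1.47) medians lie farthest to the right, and the endothelium median (-0.46) lies farthest to the left.

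Markers of other cells that an ovary sample can hold moved as well, and their part in the keratin and vimentin results was not tested. Their counts stand beside 34.5% of all gene names called, with 17.6% of all tested probes higher and 16.6% lower. Summed levels below are in units of each array's 75th percentile signal. The brightest probes of a list weigh most in its sum, so a sum is not an amount of a cell type. Of oviduct epithelium markers, 9 of 10 tested were higher and 0 lower, also at an unadjusted p under 0.05 in limma (median 1.47), and their summed level ran from 4.19 to 7.34 on control-labelled arrays and from 12.0 to 20.6 on PMSG-labelled arrays. They included Muc1, a surface mucin (3.04, with 3 control-labelled arrays above background), Cdh16, a cadherin (2.51), and Dnah5, a motor of motile cilia (2.11, with 2 control-labelled arrays above background). Of ovarian surface epithelium and mesothelium markers, 4 of 6 tested were higher (median 0.70), summing to 8.08 to 10.9 and to 13.5 to 15.7. Gpm6a passed at 2.14-fold, as did Wt1 (log2 difference 1.04) and Upk3b (0.91), Msln differed by 0.50 without passing (limma adjusted p = 0.0872), and Muc16 was not well above background on any array. Krt7, Krt8 and Krt19 were highest on PMSG-labelled array 4. The surface epithelium mean of log2 levels was the lowest of the PMSG-labelled arrays there (-0.37 against -0.23 to -0.06). In such a mean dim genes weigh as much as bright ones. Of the PMSG-labelled arrays, array 4 was lowest for Upk3b, Lrrn4 and Gpm6a and highest for Upk1b (2.46), with Msln and Wt1 between. The summed level of this list was lowest on PMSG-labelled array 1 (13.5), not on array 4. The oviduct mean of log2 levels was the highest on array 4 (-1.42 against -1.75 to -1.60). This was not particular to the oviduct list. Filament anchors (-1.26), epithelial regulators (-0.60), mesenchymal regulators (0.02) and fibroblasts and smooth muscle (4.17) also had their highest PMSG-labelled mean on array 4.

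For cells that carry vimentin the lists diverged. Of 9 endothelial genes, 4 were lower and 1 higher (median -0.46, sums 21.3 to 24.8 on control-labelled and 17.4 to 18.8 on PMSG-labelled arrays), with Tek at -1.20, Flt1 at -1.04 and Eng at -0.90. Leukocyte genes had 4 of 7 higher and 0 lower, also at an unadjusted p under 0.05 (median 0.51, sums 8.32 to 10.2 and 12.5 to 14.2), among them Ptprc (0.69), Aif1 (0.68) and Laptm5 (0.64). Of the 9 fibroblast and smooth muscle genes, 4 were higher and 0 lower in limma, with 0 lower at an unadjusted p under 0.05 too (median 0.35, sums 197 to 238 and 221 to 271), including the matrix proteoglycans Dcn (0.70) and Lum (0.58), and 0 were higher under median centring. Myh11, a smooth muscle myosin, differed by 0.56 without passing (limma adjusted p = 0.153). Granulosa cells, which can hold vimentin too, are given below. Which cells the vimentin signal came from was not tested.

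Of 8 granulosa markers 3 were higher and 1 lower (median 0.26, sums 125 to 220 and 122 to 157), with Amh, its receptor Amhr2 (1.71) and Esr2 (0.95) differing most. The 5 theca markers had 2 higher and 2 lower (median -0.22, or 0.01 without PMSG-labelled array 4, sums 125 to 147 and 28.7 to 57.9), with Insl3 at 2.60, Cyp11a1 at -3.36 and Lhcgr at -1.93. The theca sums on control-labelled arrays rest mostly on Cyp11a1 (mean level 6.59, against 3.24 on PMSG-labelled arrays). All 8 oocyte genes were higher (median 1.92, sums 2.92 to 5.14 and 9.81 to 21.4), with Zp2 at 2.17, Gdf9 at 2.05 and Figla at 1.97. For adipocytes, 0 of 6 genes passed in limma in either direction (also 0 at an unadjusted p under 0.05, and 1 higher without PMSG-labelled array 4), and sums overlapped, at 5.69 to 46.1 and 17.3 to 50.6. Retn (1.20), Cidec (0.84) and Fabp4 (0.77) differed most there without passing.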

How the data were processed

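Ovary RNA (500 ng per sample, oligo-dT primed, Cy3-labelled) from 4 control-labelled and 4 PMSG-labelled samples was measured on 1-colour arrays, and groups were taken from sample titles. The authors extracted spot intensity with Agilent Feature Extraction 11.5.1.1, including background subtraction and detrending, per the file headers. A table of log2 values was deposited too. By comparison with the scanner files (r of 0.998 or more with the own array) these are log2 signals minus the array's 75th percentile, uncentred by probe, with column medians from -3.21 to -2.82. Probe coordinates are on rn4, per the file headers.

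Control and outlier spots were left out and the log2 processed signals of a probe's spots averaged; 17 of 30367 probes lacked a usable spot on an array and were dropped. Each array's 75th percentile was subtracted. Well above background means that a share of 0.5 or more of a probe's usable spots carried that call, and a probe needed it on 4 or more arrays to be tested. The test was limma 3.58.1 under R 4.3.3 (lmFit, eBayes, no covariates, Benjamini-Hochberg, threshold 0.05). On simulated data it recovered 2 of 50 differences of 0.5 log2 units, 25 of 50 of 1 unit and 43 of 50 of 2 units. Fewer probes were changed in the simulation than were called here, so these shares need not hold for these data. The brightest probe stood for a gene. With 4 arrays per group, their number limits the precision.

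The genes named are all 9 members, the 3 with the largest absolute difference in each list, and the 2 nearest profiles per member. Krt28, Krt85, Epcam, Cdh1, Zeb1, Msln and the relatives of keratins 8 and 18 were added after values were seen. The members and lists were chosen with earlier results of these data known. Relatives were found by gene description or by a shared run of at least 16 bases. The listed gene Ovgp1 was not analysed here. Same-numbered arrays had correlated deviations of 0.0444, 0.0361, 0.183 and -0.0192, so the numbers were not used as pairs. Such values cannot show whether same-numbered samples were handled together. Alternatives were other scalings, normexp background correction (offset 50), the deposited values, other filters, blocks, array weights, an equal-variance test and leaving out each array.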

Additional observations from a re-analysis of the deposited data

Results flagged for a closer look

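Of 104 groups of 4 arrays examined, 8 held an array far from the others, where chance gives about 1 in 20, or 5.2; none is a group of the 9 genes followed (Krt5, Krt7, Krt8, Krt14, Krt15, Krt17, Krt18, Krt19 and Vim). The value given first is the gap to the nearest array as a share of the group's range. Krt42 had a gap of 0.992 on PMSG-labelled arrays, with array 4 at -3.53 and the others all at -2.84. The gap of Klf5 was 0.836, with PMSG-labelled array 4 at 1.41 against 0.61 to 0.74. For Insl3 it was 0.921, with PMSG-labelled array 4 at 2.49 against 3.50 to 3.59. On PMSG-labelled array 3, Figla (gap 0.836) read -0.93 against -1.10 to -1.07, and Laptm5 (gap 0.903) read 2.52 against 2.42 to 2.43. Among control-labelled arrays, Prph had a gap of 0.855, with array 2 at -1.73 against -1.30 to -1.23. S100a4 had a gap of 0.950, with array 3 at 3.81 against 3.39 to 3.41. Cdh16 had a gap of 0.887, with array 4 at -1.31 against -0.72 to -0.65.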

How the results depend on the processing

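Vim, Krt15 and Krt18 kept their direction and call in each of 18 alternatives; Krt5 kept its direction and lost its call in 9 (adjusted p 0.0527 with the slide row as a block, 0.0650 in the equal-variance test, and 7 of 8 fits with 1 array left out). Leaving out 1 array gave 6552 (without control-labelled array 4) to 11382 (without PMSG-labelled array 4) called probes and 3 to 4 genes of the set. Pair differences ranged from -0.84 to -0.57 (Krt8 minus Krt18), -0.20 to 0.28 (Krt5 minus Krt14), -0.58 to -0.47 (Krt7 minus Krt19) and 1.72 to 1.94 (Krt18 minus Vim). The sign of the Krt8 difference, near 0, turned between alternatives (-0.23 to 0.15), as did that of the first Krt7 probe (-0.29 to 0.06); neither was called.

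With the replicate number as a block, 7346 probes and 4 genes of the set were called, and 3 correlations of same-numbered arrays of 4 were below 0.1, so the block is not read as pairing. Each array had a different position by slide row and column, and of these only the row was used as a block. Within slide row 1 (2 arrays per label), limma called 3351 probes, with 2 probes and 2 genes of the set: Vim (-1.12) and Krt15 (-1.04); Krt18 differed by 0.82 (adjusted p = 0.0602) and Krt5 by 0.83 (0.0815). Within slide row 2, limma called 0 probes, with 0 probes and 0 genes of the set (6015 probes and 2 genes of the set at an unadjusted p under 0.05; no other tool was run there). The differences there were -1.19 for Vim, -1.25 for Krt15, 0.54 for Krt18 and 0.50 for Krt5, of the same sign as with all arrays. The pair differences within rows, an alternative chosen after seeing the data, were -0.79 and -0.53, -0.28 and 0.42, -0.54 and -0.53, and 1.94 and 1.72 in the order above. Krt17 is limited by signal over background.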
